A study of Homo sapiens with 4 samples.

Results

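The genes described here were the IGF-binding proteins IGFBP1, IGFBP2, IGFBP3 and IGFBP4, the ligand IGF2, the receptors IGF1R and INSR, the adaptors IRS1 and IRS2, and the transcription factor FOXO1. They are 10 of the 24462 gene symbols counted in HepG2, a human liver tumour line that the study used as a hepatocellular carcinoma line. The set was selected on measured values, the fold change of IGFBP1 in the library from cells depleted of CDK4 and CDK6, which was among the firmest decreases there. The comparison of that library with its scrambled control is therefore given as a description of the members, without a test. The values in cells treated with the CDK4/6 inhibitor were not used for the choice.

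The study had 4 libraries of HepG2 cells grown in RPMI medium with fetal bovine serum. One arm held cells treated with the vehicle DMSO and cells treated with PD-0332991 (PD0332991, palbociclib), an inhibitor of the kinases CDK4 and CDK6 that drive cells from G1 into S phase. The other arm held cells transfected with a scrambled siRNA (scrambled) and cells transfected with siRNAs against CDK4 and CDK6 together (CDK4/6 KD). Each condition had 1 library, so no difference has a replicate check and no p-value is given. The dose of the inhibitor and the times of exposure and transfection of the sequenced cells were not given in the sources used here. The arms differed in vehicle, transfection and library, and these cannot be told apart between arms.

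Insulin and the insulin-like growth factors bind the receptor tyrosine kinases INSR and IGF1R, which phosphorylate the adaptors IRS1 and IRS2. The signal passes through PI3K to AKT, which phosphorylates FOXO1 and keeps it out of the nucleus. In liver, FOXO1 raises transcription of IGFBP1, of genes of glucose output and of the receptor and adaptor genes themselves, and insulin lowers them. The IGF-binding proteins are secreted carriers that hold IGF1 and IGF2 away from the receptors or deliver them to tissues, and IGFBP1 is the form whose production in liver is under acute control by insulin, fasting and stress.

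The libraries held between 8983848 and 11176880 reads counted to genes. Levels are given as CPM, the counts scaled to a common library size with the trimmed mean of M-values (TMM). A fold change compares 2 libraries at this scale, and its interval is the exact 95% interval for the split of the reads between them. These intervals cover counting error only, since each condition had 1 library. Reads without molecular identifiers are not independent molecules, so the intervals can be too narrow even for that error. CDK4 had 3789 reads in the scrambled library and 814 in the CDK4/6 KD library (fold change: 0.203), and CDK6 had 5734 and 1464 (fold change: 0.241). CDK4 overlaps TSPAN31 and MARCH9 on the other strand. The PD0332991 library held 0.854 times the CDK4 level and 0.930 times the CDK6 level of DMSO. All 15 hepatocyte markers examined had at least 10 reads in every library, with summed levels between 22114 and 28473 CPM. The summed level of 12 proliferation markers was 4853 CPM in DMSO, 654 CPM in PD0332991, 3442 CPM in scrambled and 1536 CPM in CDK4/6 KD.

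IGFBP1 was the member with the widest range. It had 1376 reads in DMSO (151 CPM), 4282 in PD0332991 (470 CPM), 4333 in scrambled (405 CPM) and 139 in CDK4/6 KD (12.3 CPM). The CDK4/6 KD library stood far below the other three. It was 32.8-fold below scrambled (95% interval 27.8 to 39.3) and 12.2-fold below DMSO (10.3 to 14.7). PD0332991 was 3.12-fold above DMSO (2.94 to 3.32). The 2 ways of acting on CDK4 and CDK6 thus left IGFBP1 on opposite sides of their own controls, and the fold change in CDK4/6 KD was 0.00975 times that in PD0332991 (0.00815 to 0.0117). Among the 13099 genes that passed the count filter in both comparisons, 57 were at least 2-fold lower in CDK4/6 KD and at least 2-fold higher in PD0332991 (0.435%). At least 2-fold in the same direction in both comparisons were 3.33% of these genes. The decrease of IGFBP1 in CDK4/6 KD chose the set, so nothing about IGFBP1 is read from these shares.

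The control libraries also differed in IGFBP1. Scrambled was 2.69-fold above DMSO (2.53 to 2.86), and PD0332991 was 1.16-fold above scrambled (1.11 to 1.21). The IGFBP1 level of the inhibitor library was thus close to that of the scrambled control, and the DMSO library lay between these libraries and CDK4/6 KD. The gene lies on the plus strand at chr7:45888357-45893668 of GRCh38 in GENCODE 29. Its nearest coding gene on the other side from IGFBP3, AC096582.3, was not analysed here.

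**Figure D1:**
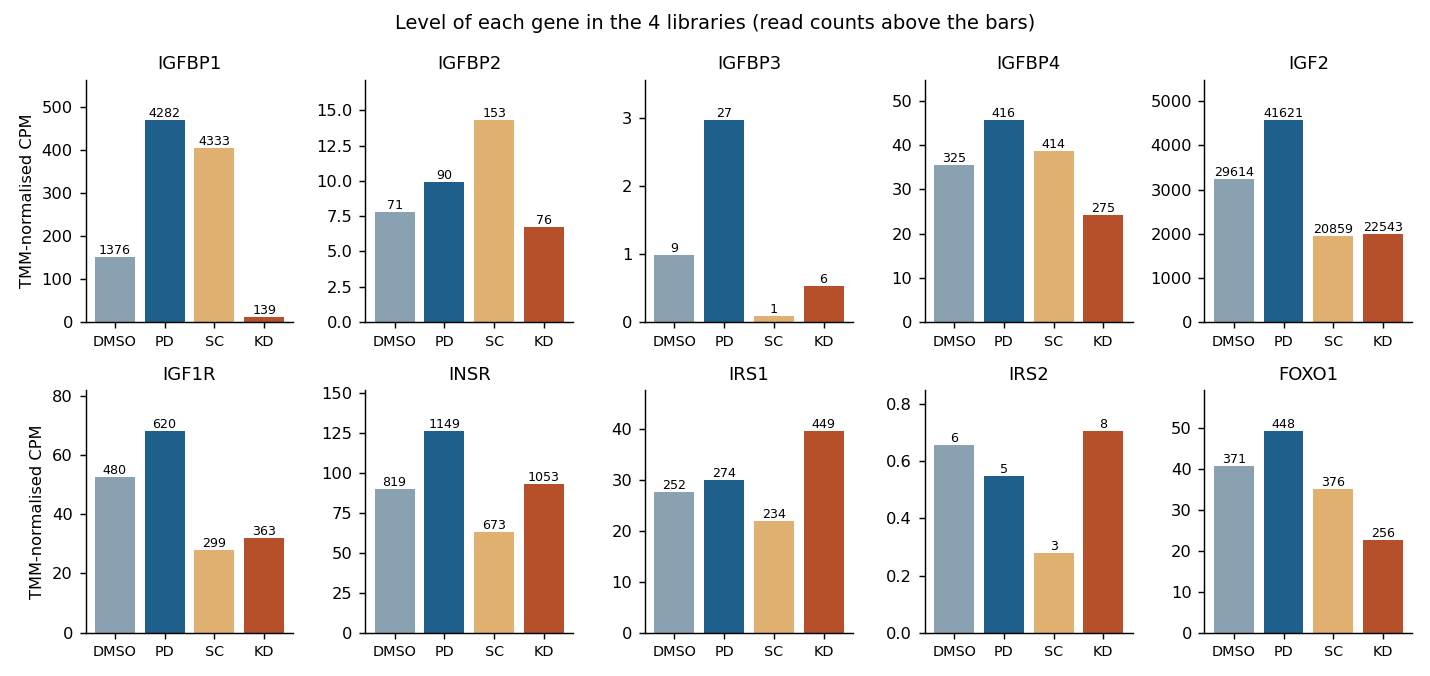
Level of each of the 10 genes as TMM-normalised CPM (linear axes that start at 0, a separate scale for each gene) in the DMSO, PD0332991 (PD), scrambled (SC) and CDK4/6 KD (KD) libraries, with 1 library per bar and its read count above the bar. IGFBP1 has 139 reads in CDK4/6 KD against 4333 in scrambled, while IGF2 and IGF1R are higher in both libraries of the drug arm than in both siRNA libraries.

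IGFBP2 (chr2:216632828-216664436), a carrier of IGF2 and IGF1 that is made in fetal and adult liver, had 71 reads in DMSO (7.77 CPM), 90 in PD0332991 (9.88 CPM), 153 in scrambled (14.3 CPM) and 76 in CDK4/6 KD (6.71 CPM). Scrambled was the highest library, followed by PD0332991, DMSO and CDK4/6 KD. PD0332991 held 0.692 times the level of scrambled (0.527 to 0.903). CDK4/6 KD was 2.12-fold below scrambled (1.61 to 2.84), but against DMSO its fold change was 0.865 with an interval that held 1 (0.617 to 1.21). The fold change in PD0332991 was 1.27, also with an interval that held 1 (0.922 to 1.76). Scrambled was 1.83-fold above DMSO (1.38 to 2.47).

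IGFBP4, an inhibitory carrier that is cleaved by the protease PAPPA, had 325 reads in DMSO (35.6 CPM), 416 in PD0332991 (45.7 CPM), 414 in scrambled (38.7 CPM) and 275 in CDK4/6 KD (24.3 CPM). The order of the libraries was that of PD0332991, scrambled, DMSO and CDK4/6 KD, as for IGFBP1, with a far smaller range. CDK4/6 KD was 1.59-fold below scrambled (1.36 to 1.86) and 1.46-fold below DMSO (1.24 to 1.73). PD0332991 was 1.28-fold above DMSO (1.11 to 1.49). The controls differed by 1.09-fold, with an interval that held 1 (0.938 to 1.26).

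IGFBP3, the main carrier of IGFs in blood, was near the limit of counting, with 9 reads in DMSO, 27 in PD0332991, 1 in scrambled and 6 in CDK4/6 KD. Its level in PD0332991 (2.97 CPM) was 2.91-fold that in DMSO (0.985 CPM; interval 1.37 to 7.28). The comparison of CDK4/6 KD with scrambled had fewer than 10 reads in both libraries and was not counted, and its fold change of 4.05 had an interval from 0.688 to 261. IGFBP1 and IGFBP3 are neighbours on chromosome 7. IGFBP3 lies 18.6 kb beyond IGFBP1 on the opposite strand (chr7:45912245-45921874), and its order of libraries differed from that of IGFBP1.

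The summed level of fibroblast markers had the same order of libraries as IGFBP3, but not every marker did. The order of IGFBP3 between CDK4/6 KD and DMSO rests on 6 and 9 reads (fold change 0.560, interval 0.158 to 1.69). Of 12 fibroblast markers, 7 had at least 10 reads in DMSO, 8 in PD0332991, 2 in scrambled and 3 in CDK4/6 KD. Their summed level was 92.6 CPM in PD0332991, 55.6 CPM in DMSO, 25.9 CPM in CDK4/6 KD and 9.91 CPM in scrambled, which is also the order of IGFBP3. Most of these reads were from COL1A1, the chain of type I collagen, with 332, 468, 73 and 207 reads in DMSO, PD0332991, scrambled and CDK4/6 KD. DCN was at 0 in DMSO and scrambled, and LUM was at 0 in both siRNA libraries. THY1 had 13, 13, 3 and 2 reads in DMSO, PD0332991, scrambled and CDK4/6 KD, and PDGFRA had 2, 2, 0 and 3. Keratinocyte markers had another order. Of the 28, 5, 15, 12 and 11 had at least 10 reads in these libraries in that order, with summed levels between 1099 and 1353 CPM that came mostly from DSP, SFN and KRT10. The basal keratins KRT5 and KRT14 had 2 and 9 reads in DMSO, 113 and 249 in PD0332991, 13 and 31 in scrambled, and 43 and 74 in CDK4/6 KD, while S100A7 and LOR were at 0 in every library. Fibroblasts and keratinocytes both make IGFBP3. The part of such RNA in the IGFBP3 reads was not tested. From a bulk library, fewer cells of a type and less RNA per cell cannot be told apart.

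**Figure D2:**
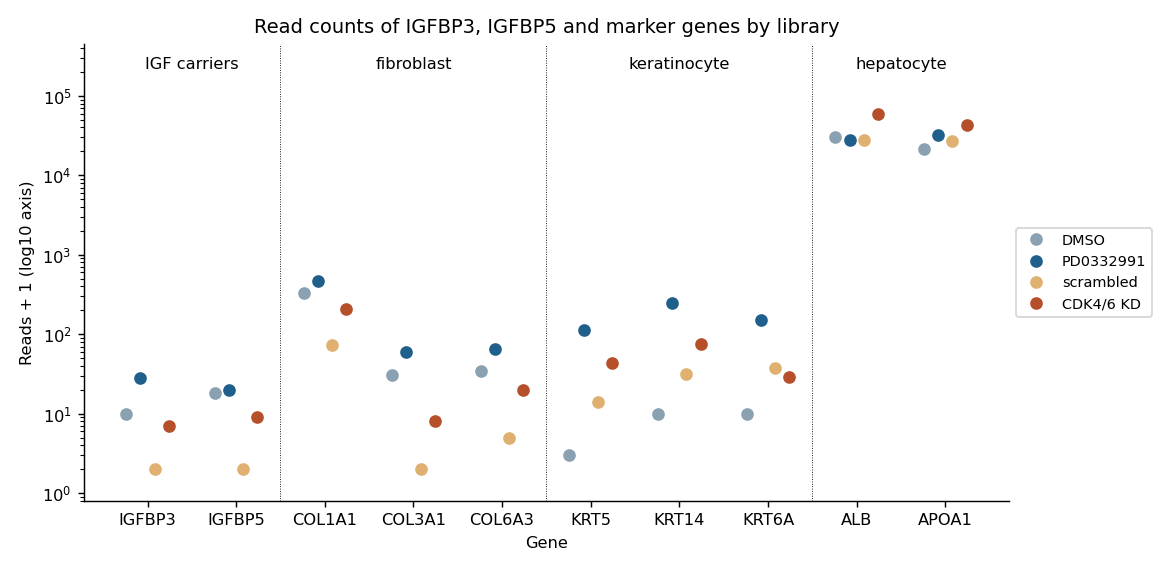
Reads plus 1 (log10 axis) of IGFBP3 and IGFBP5, of 3 fibroblast, 3 keratinocyte and 2 hepatocyte markers in each of the 4 libraries, 1 point per library. IGFBP3 and the collagens COL1A1, COL3A1 and COL6A3 share the order PD0332991, DMSO, CDK4/6 KD, scrambled, whereas KRT5, KRT14 and KRT6A are lowest in DMSO.

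IGF2, a fetal growth factor that many liver cancer lines keep making, had 29614 reads in DMSO (3241 CPM), 41621 in PD0332991 (4571 CPM), 20859 in scrambled (1949 CPM) and 22543 in CDK4/6 KD (1992 CPM). Both siRNA libraries lay below both libraries of the drug arm, and the siRNA libraries were close to each other. CDK4/6 KD was 1.02-fold scrambled (1.003 to 1.04), while PD0332991 was 1.41-fold DMSO (1.39 to 1.43). Scrambled held 0.601 times the level of DMSO (0.591 to 0.612), so the difference between the controls was larger than that between either treatment and its control. The gene took between 0.187% and 0.463% of the reads of a library. It overlaps the read-through gene INS-IGF2 on the same strand (IGF2 at chr11:2129112-2149603, INS-IGF2 at chr11:2132538-2161209), and the counts of the 2 symbols differed by 7 to 20 reads per library. The reads of these symbols cannot be separated. INS itself was at 0 in every library.

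IGF1R (chr15:98648539-98964530), the receptor for IGF1 and IGF2, had 480 reads in DMSO (52.5 CPM), 620 in PD0332991 (68.1 CPM), 299 in scrambled (27.9 CPM) and 363 in CDK4/6 KD (32.1 CPM). As for IGF2, both siRNA libraries lay below both of the drug arm. PD0332991 was 1.30-fold DMSO (1.15 to 1.46), CDK4/6 KD was 1.15-fold scrambled with an interval that held 1 (0.982 to 1.34), and scrambled was 1.88-fold below DMSO (1.62 to 2.18).

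INSR (chr19:7112255-7294034), the insulin receptor, had 819 reads in DMSO (89.6 CPM), 1149 in PD0332991 (126 CPM), 673 in scrambled (62.9 CPM) and 1053 in CDK4/6 KD (93.0 CPM). Each treated library was above its own control, and by a similar amount. The fold change was 1.48 in CDK4/6 KD (1.34 to 1.63) and 1.41 in PD0332991 (1.29 to 1.54), and the ratio of these fold changes was 1.05 (0.921 to 1.20). This likeness depended on the controls. With each treated library set against the control of the other arm, the ratio was 0.517. CDK4/6 KD and DMSO, neighbours in the order of levels, had a fold change of 1.04 with an interval that held 1 (0.946 to 1.14).

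IRS1 (chr2:226731317-226799759), the adaptor that carries the signal from both receptors to PI3K, had 252 reads in DMSO (27.6 CPM), 274 in PD0332991 (30.1 CPM), 234 in scrambled (21.9 CPM) and 449 in CDK4/6 KD (39.7 CPM). The CDK4/6 KD library was the highest. It was 1.81-fold above scrambled (1.55 to 2.13) and 1.44-fold above DMSO (1.23 to 1.68), whereas the fold change of PD0332991 was 1.09 with an interval that held 1 (0.916 to 1.30). The ratio of the fold changes was 1.66 (1.32 to 2.10), but 1.04 with each treated library set against the control of the other arm. IRS2 (chr13:109752698-109786568), the other main adaptor of liver, had only 6, 5, 3 and 8 reads in DMSO, PD0332991, scrambled and CDK4/6 KD, and no difference was detectable at this depth.

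FOXO1 (chr13:40469953-40666597) had 371 reads in DMSO (40.6 CPM), 448 in PD0332991 (49.2 CPM), 376 in scrambled (35.1 CPM) and 256 in CDK4/6 KD (22.6 CPM). The CDK4/6 KD library was the lowest and PD0332991 the highest. CDK4/6 KD was 1.55-fold below scrambled (1.32 to 1.83) and 1.79-fold below DMSO (1.53 to 2.11). PD0332991 was 1.21-fold above DMSO (1.05 to 1.39). IGFBP1, IGFBP4 and FOXO1 were the members with opposite directions in the 2 treatments and intervals that left out 1 in both. The ratio of the CDK4/6 KD fold change to the PD0332991 fold change was 0.489 for IGFBP4 (0.397 to 0.604) and 0.532 for FOXO1 (0.431 to 0.656).

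**Figure D3:**
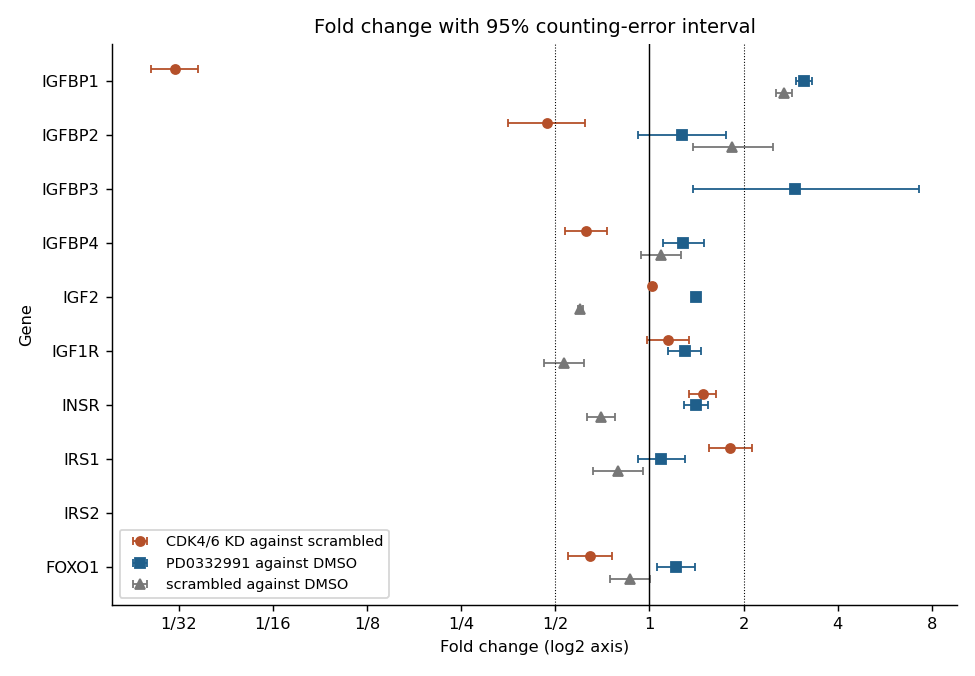
Fold change (log2 axis) of each gene in CDK4/6 KD against scrambled, PD0332991 against DMSO and scrambled against DMSO, with the exact 95% counting-error interval as bars; dotted lines mark 2-fold, and comparisons with fewer than 10 reads in both libraries are left out. IGFBP1 lies at 0.0304 in CDK4/6 KD and at 3.12 in PD0332991, and the 9 points of PD0332991 all lie above 1.

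Over the members, 9 of 10 passed the filter of 10 reads in PD0332991 against DMSO, and all 9 fold changes were above 1. The interval lay above 1 for 7 of them and below 1 for 0, where the shares over all genes tested were 28.1% and 28.6%. At least 2-fold higher were IGFBP1 and IGFBP3 (7.49% of all genes), and 0 members were at least 2-fold lower (7.07%). IGFBP3, with 9 reads in DMSO, passed the filter only through the PD0332991 library, where it was high. With a filter of 50 reads, which left it out, 1 member was at least 2-fold higher and 6 had an interval above 1. The median log2 fold change of the 9 was 0.37, beside 0.02 over all genes. Set against scrambled in place of DMSO, PD0332991 had 8 members with an interval above 1 and 1 below, IGFBP2. Nothing is read from these last counts, because the scrambled library was part of the comparison that chose the set.

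In CDK4/6 KD against scrambled, 8 members passed the filter. The interval lay above 1 for IGF2, INSR and IRS1 and below 1 for IGFBP1, IGFBP2, IGFBP4 and FOXO1, where the shares over all genes were 30.0% and 31.9%. At least 2-fold lower were IGFBP1 and IGFBP2 (7.62% of all genes), and none of the members was at least 2-fold higher (9.19%). This contrast chose the set, and nothing is read from these counts. The median log2 fold change was -0.30, beside -0.0036 over all genes. All 3 binding proteins that passed the filter were lower than scrambled, and INSR, IRS1 and IGF1R had fold changes above 1. The interval of IGF1R held 1 (0.982 to 1.34). Nothing is read from these directions either, since the same contrast chose the set. Against DMSO in place of scrambled, the members with an interval above 1 were IRS1 alone, and those below 1 were IGFBP1, IGFBP4, IGF2, IGF1R and FOXO1.

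Between the controls, scrambled against DMSO, 8 members passed the filter. The interval lay above 1 for IGFBP1 and IGFBP2 (28.3% of all genes) and below 1 for IGF2, IGF1R, INSR and IRS1 (28.0%). IGFBP1 was at least 2-fold higher (5.3%), and no member that passed was at least 2-fold lower (6.64%). The scrambled library was part of the comparison that chose the set, so nothing is read from these counts. Of the 9 members with at least 10 reads in a library, 4 were lower in both siRNA libraries than in both libraries of the drug arm, which were IGFBP3, IGF2, IGF1R and FOXO1. Over all genes this share was 15.3%. It rests on the order of levels alone. The fold change of FOXO1 in scrambled against DMSO was 0.866 with an interval that held 1 (0.748 to 1.002). IGFBP3 had 6 reads in CDK4/6 KD and 9 in DMSO, also with an interval that held 1 (0.158 to 1.69). Both siRNA libraries were used to choose the set, so nothing is read from this count either.

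The other genes of the pathway were examined as 10 lists that held 119 counted genes outside the set. In CDK4/6 KD against scrambled, 100 of the 119 had enough reads. The 2-fold threshold was passed upward by 10 (9.19% of all genes) and downward by 4 (7.62%). Above 1 lay 43 intervals (30.0% of all genes) and below 1 lay 28 (31.9%). In PD0332991 against DMSO, 106 had enough reads, and 8 passed the threshold upward (7.49% of all genes) and 4 downward (7.07%). Above 1 lay 47 intervals (28.1% of all genes) and below 1 lay 23 (28.6%). The median log2 fold change of these pathway genes was 0.11 and 0.17 in the 2 comparisons.

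**Figure D4:**
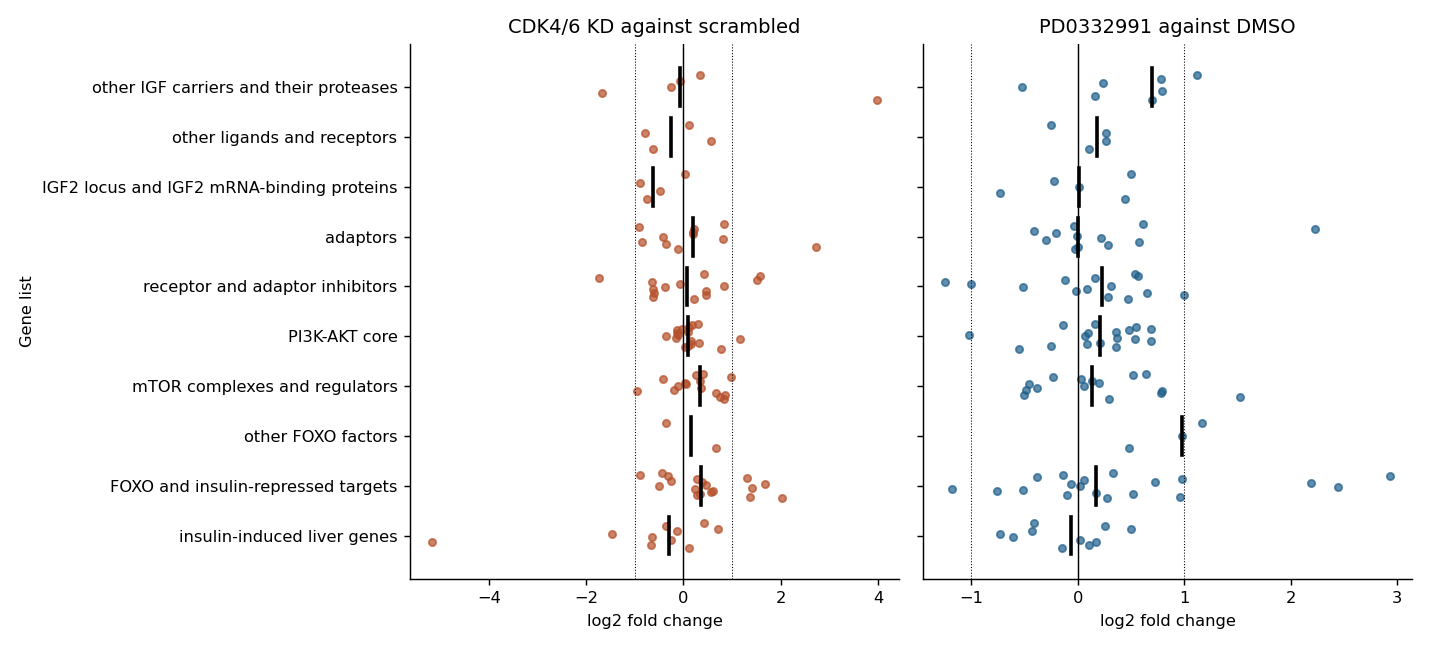
Log2 fold change of the genes outside the set in 10 lists of the pathway, in CDK4/6 KD against scrambled (left) and PD0332991 against DMSO (right), 1 point per gene that passed the filter of 10 reads; black bars mark the median of each list and dotted lines 2-fold, and the panels have separate horizontal scales. Most genes lie within 2-fold, and EGR1 and IGFALS are the far points on the left.

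Among the other carriers and their regulators, IGFBP6, which prefers IGF2, had 34 reads in DMSO, 59 in PD0332991, 110 in scrambled and 36 in CDK4/6 KD. Scrambled was 3.20-fold above CDK4/6 KD (2.20 to 4.85), and PD0332991 was 1.73-fold above DMSO (1.12 to 2.74). Like IGFBP2, it stood high in scrambled, with CDK4/6 KD and DMSO close together. IGFALS, the acid-labile subunit that forms the ternary complex with IGFBP3 or IGFBP5, had 25 reads in CDK4/6 KD and 1 to 4 elsewhere. IGFBP7, a low-affinity relative, was lower in PD0332991 (fold change: 0.697). STC2, a secreted inhibitor of PAPPA, was 2.17-fold higher in PD0332991 (2.01 to 2.34) and 1.26-fold higher in CDK4/6 KD (1.19 to 1.34). IGFBP5, chosen after its values were seen, had 17, 19, 1 and 8 reads in DMSO, PD0332991, scrambled and CDK4/6 KD. This order was shared with IGFBP3 and the summed level of the fibroblast markers. Between PD0332991 and DMSO it rests on 19 and 17 reads, so no difference between these libraries is read from it.

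IGF2R, which binds IGF2 and takes it to lysosomes, was higher in both treatments (fold changes of 1.48 in CDK4/6 KD and 1.20 in PD0332991). ITGB1, an integrin subunit that pairs in receptors for IGFBP1, had fold changes of 0.579 in CDK4/6 KD and 1.20 in PD0332991. The IGF2 mRNA-binding proteins were lower in CDK4/6 KD, with fold changes of 0.592 for IGF2BP1, 0.712 for IGF2BP2 and 0.541 for IGF2BP3. In PD0332991 these were 0.605, 1.01 and 0.859. IGF2 itself was 1.02-fold and 1.41-fold in these comparisons.

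Of the adaptors, SOS1, the exchange factor that activates RAS, was above its own control in both treatments (1.79 in CDK4/6 KD and 1.53 in PD0332991). Its level was 90.0 CPM in DMSO, 47.7 CPM in scrambled and 85.3 CPM in CDK4/6 KD, so scrambled was the low library. SHC1 was lower in CDK4/6 KD (0.529). DOK1 had 3 reads in scrambled and 23 or 24 in the other libraries. Of the inhibitors of the receptors and adaptors, GRB10, which binds INSR and IGF1R and limits their signal, was 2.00-fold higher in PD0332991 (1.64 to 2.47). The receptor phosphatase PTPRF was 1.79-fold scrambled in CDK4/6 KD and 1.25-fold DMSO in PD0332991. Scrambled was again the low library, with 200 CPM against 367 CPM in DMSO and 359 CPM in CDK4/6 KD. TRIB1 had 592, 662, 1419 and 448 reads in DMSO, PD0332991, scrambled and CDK4/6 KD and was 0.299 times scrambled in CDK4/6 KD, again with the scrambled library as the high one, while its relative TRIB2 was 2.96-fold higher in CDK4/6 KD (2.33 to 3.83). SOCS1 was lower in PD0332991 (fold change: 0.498).

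In the PI3K-AKT core, 5 of 17 intervals lay above 1 and 1 below in CDK4/6 KD, and 9 of 17 above and 2 below in PD0332991. The shares over all genes were 30.0% above and 31.9% below in CDK4/6 KD, and 28.1% and 28.6% in PD0332991. PDPK1, the kinase that activates AKT, was 2.24-fold higher in CDK4/6 KD (2.00 to 2.51) and 1.45-fold higher in PD0332991. AKT1 was 1.72-fold scrambled in CDK4/6 KD and 0.682 times the control in PD0332991. Its level was 83.1 CPM in DMSO, 41.4 CPM in scrambled and 71.2 CPM in CDK4/6 KD, so CDK4/6 KD was above scrambled but not above DMSO. PIK3R2, a regulatory subunit of PI3K, and INPPL1, a lipid phosphatase that opposes it, were 1.62-fold and 1.61-fold higher in PD0332991. Of the mTOR genes, DDIT4, a stress-induced inhibitor of mTORC1, had 275, 787, 889 and 1583 reads in DMSO, PD0332991, scrambled and CDK4/6 KD. It was higher in both treatments (2.87-fold in PD0332991 and 1.68-fold in CDK4/6 KD) and 2.76-fold higher in scrambled than in DMSO. EIF4EBP2, a repressor of cap-dependent translation, was 0.518 times scrambled in CDK4/6 KD and 1.73-fold higher in PD0332991.

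Of the other FOXO factors, FOXO3 was above its own control in both treatments (1.60-fold in CDK4/6 KD and 1.40-fold in PD0332991). Its scrambled library was low, at 0.592 times DMSO (0.513 to 0.681). CDK4/6 KD (50.4 CPM) lay near DMSO (53.4 CPM), so the difference in that arm depended on the control. FOXO4 was 1.97-fold higher in PD0332991 (1.44 to 2.73), and its fold change in CDK4/6 KD was 0.784 with an interval that held 1 (0.522 to 1.17).

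Taken as a list, the FOXO and insulin-repressed targets other than the members did not share the low IGFBP1 level of CDK4/6 KD, though some were lower there. Of 18 with enough reads, 5 passed the 2-fold threshold upward (9.19% of all genes) and 0 downward (7.62%). Above 1 lay 10 intervals (30.0% of all genes) and below 1 lay 3 (31.9%). The median log2 fold change of the 18 was 0.36, and their lowest fold change was 0.538. KLHL24 had 38, 175, 52 and 178 reads in DMSO, PD0332991, scrambled and CDK4/6 KD, so it was high in both treated libraries (3.21-fold in CDK4/6 KD and 4.58-fold in PD0332991). SESN1, a stress-responsive inhibitor of mTORC1, was 2.48-fold higher in CDK4/6 KD (2.13 to 2.92). APOC3, an apolipoprotein gene that insulin represses, was 2.58-fold higher in CDK4/6 KD and 1.95-fold higher in PD0332991.

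In PD0332991 against DMSO, 19 of these targets had enough reads. The 2-fold threshold was passed upward by 3 (7.49% of all genes) and downward by 1 (7.07%). Above 1 lay 9 intervals (28.1% of all genes) and below 1 lay 5 (28.6%). G6PC, the final enzyme of hepatic glucose output, had 12 reads in DMSO, 67 in PD0332991, 2 in scrambled and 1 in CDK4/6 KD, a 5.44-fold difference in PD0332991 (3.01 to 11.4). Both siRNA libraries were under the limit of 3 reads, so no fold is given between them. SESN3 had 8 reads in DMSO and between 46 and 64 in the other libraries. CITED2, the target past the threshold downward, had 23 reads in PD0332991 against 53 in its control, and was named after its value was seen. IGFBP1 was thus higher in PD0332991 with some genes of the list and without others.

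Of the insulin-induced liver genes, 10 passed the filter in each treatment. In CDK4/6 KD, 2 intervals lay above 1 (30.0% of all genes) and 6 below (31.9%). In PD0332991, 3 lay above 1 (28.1%) and 4 below (28.6%). EGR1, an immediate-early transcription factor, had 172 reads in DMSO, 193 in PD0332991, 1576 in scrambled and 46 in CDK4/6 KD. Its fold change in CDK4/6 KD was 0.0279 (0.0201 to 0.0370), the only one of the pathway genes below that of IGFBP1, and scrambled was 7.81-fold above DMSO (6.68 to 9.21). ID1 was lower in both treatments (0.362 and 0.603). CCND1, cyclin D1, was 0.626 times scrambled in CDK4/6 KD and 1.08-fold DMSO in PD0332991 (1.03 to 1.13). In PD0332991, HK2 was lower (0.657, interval 0.584 to 0.737) and PNPLA3 was higher (1.41, interval 1.23 to 1.62). The median log2 fold change of the list was -0.30 in CDK4/6 KD and -0.07 in PD0332991.

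The likeness of other genes to IGFBP1 was measured as the distance between centred log2 CPM profiles over the 4 libraries, among 9984 genes with at least 100 reads in a library. The nearest were KCTD20 (distance 2.19), DAZAP2 (2.21), TOMM22 (2.30), HYAL1 (2.33) and ARL2 (2.39), against a median distance of 4.26. Each of them was low in CDK4/6 KD, with fold changes between 0.139 and 0.238, and none reached the PD0332991 fold change of IGFBP1 (0.897 to 1.61). With 4 libraries, such likeness is a description only.

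IGFBP4 (chr17:40443461-40457731) lies between TOP2A, a proliferation gene 25.5 kb before it, and TNS4, a focal adhesion gene 18.1 kb after it. TOP2A was lower in both treatments (0.395 in CDK4/6 KD and 0.131 in PD0332991). TNS4 had 108, 33, 131 and 6 reads in DMSO, PD0332991, scrambled and CDK4/6 KD and was also lower in both (0.0472 and 0.310). IGFBP4, between them, had fold changes of 0.628 and 1.28.

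Promoter windows of 250 bases before to 50 bases after a gene start, from RefSeq on GRCh38.p14, were matched for 8 members with 10 windows in all; IGFBP1 and IGF2 had none in the table. The FOXO core GTAAACA was in 0 of these 10 windows on either strand, and in 3.42% of all 35116 windows. The insulin response core CAAAACAA was in 1 window, that of IRS2, and in 1.68% of all windows. The stretch around it is shown because it was the only match among the members, with the motif in capitals as it reads on the strand of the gene, which is the reverse complement of the core (chr13:109786601-109786640, minus strand).
IRS2: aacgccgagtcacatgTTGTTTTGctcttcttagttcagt
The match is a description of these letters. IRS2 itself had at most 8 reads in a library.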

How the data were processed

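RNA of HepG2 cells was made into 3′ end libraries (QuantSeq) and sequenced as single reads on a NextSeq 500. The deposited values are counts per gene symbol and library, made by the authors; the labels' processing notes name hg19, Bowtie2 and edgeR, without versions or roles, and whether counting used strand was not given in the sources used here. The tables held 25737 entries; 286 repeated symbols were summed, which left 24462 genes, and no member was repeated.

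Counts were scaled by TMM in edgeR 4.0.16 (R 4.3.3). Fold changes used a pseudocount of 0.5 reads. Genes needed 10 reads in either library, and 2-fold was the threshold for a called gene. With 1 library per condition there was no test. Exact 95% Clopper-Pearson intervals for the split of the reads were computed with scipy 1.17.1 and cover counting error only; the procedure was tested on simulated data. Floors were set at 3 reads. The members and lists were chosen with earlier results of these data known. Named genes were all members and, from each list and treatment, up to 3 genes whose interval left out 1, ranked by the interval end nearest to 1, together with the 5 nearest profiles to IGFBP1 and the nearest coding genes of IGFBP1 and IGFBP4; other genes, among them the single markers COL3A1, LUM, DSP, S100A7, LOR, CD3E, HBB and TYROBP, were chosen after their values were seen. Positions are from GENCODE 29, which differs in build from the counts, and serve for neighbours only. Alternatives were DESeq2 1.42.0 size factors, total counts, quantile normalisation (limma 3.58.1), other pseudocounts, filters and thresholds, single entries of repeated symbols, and the control of the other arm.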

Additional observations from a re-analysis of the deposited data

Results flagged for a closer look

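IGFBP1, IGFBP4 and FOXO1 had opposite directions in the 2 treatments, each with intervals that left out 1. IGFBP1 had a fold change of 0.0304 in CDK4/6 KD against scrambled and 3.12 in PD0332991 against DMSO. IGFBP4 had fold changes of 0.628 and 1.28, and FOXO1 of 0.644 and 1.21. With 1 library per condition the difference between the treatments was not tested against the spread of replicates. Against the control library of the other arm, the fold change of IGFBP1 was 0.0818 for CDK4/6 KD and 1.16 for PD0332991, that of IGFBP4 was 0.683 and 1.18, and that of FOXO1 was 0.558 and 1.40, the same directions as with their own controls.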

How the results depend on the processing

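Of 142 values of members under an alternative, 123 moved by less than their interval, 18 moved further and 1 reversed. A value was counted as reversed where its interval had left out 1, which held for the fold change of IGF2 in CDK4/6 KD, 0.614 against DMSO. The fold changes of IGF1R in CDK4/6 KD and of IGFBP2 in PD0332991, whose intervals had held 1, also turned, to 0.611 and 0.692 with the control of the other arm. With controls exchanged, the ratio of the fold changes of IGFBP2 also reversed, to 1.25, and that of IGFBP1 was 0.0704. The ratio of INSR moved to 0.517 and that of IRS1 to 1.04. With the control of the other arm, the fold change of IGFBP1 was 0.0818 in CDK4/6 KD and 1.16 in PD0332991. Members at least 2-fold apart in CDK4/6 KD numbered 2, and 1 with total counts alone, 4 without a filter, 5 at 1.5-fold, 1 with the whole interval past 2-fold and 1 against DMSO. In PD0332991 they numbered 2, and 1 with a filter of 50 reads, 1 with the whole interval and 4 against scrambled. Between the controls they numbered 1, and 3 without a filter and 4 at 1.5-fold. Members with an interval above 1 in CDK4/6 KD numbered 3, and 1 against DMSO; those below 1 in PD0332991 numbered 0, and 1 against scrambled. These interval counts were added after the data were seen. Over all genes, 2289 were at least 2-fold apart in CDK4/6 KD, 1308 with a filter of 50 reads, 5003 at 1.5-fold and 892 with the whole interval; in PD0332991, 1957, 1081, 4284 and 681; between the controls, 1588, 776, 3875 and 430, and 2501 without a filter. Total counts alone moved the median log2 fold change over all genes in CDK4/6 KD from -0.0036 to 0.10. No replicate could be left out, and no paired analysis was possible because each condition had 1 library. Depth limits IGFBP3 and IRS2, which had at most 27 and 8 reads.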

Other observations

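Of the 15 hepatocyte markers, 11 had an interval above 1 in CDK4/6 KD (30.0% of all genes). The 2-fold threshold was passed upward by 3 (9.19%). ALB, albumin, had 30328 reads in DMSO, 27771 in PD0332991, 27539 in scrambled and 58465 in CDK4/6 KD (2.01-fold over scrambled), and FGB, the fibrinogen beta chain, was 2.62-fold higher. In PD0332991 against DMSO 11 of 15 markers were also higher by their interval (28.1% of all genes), and 0 were 2-fold higher (7.49%). APOA1 was 1.49-fold and TTR 1.54-fold higher there. Of the blood cell markers, LYZ, lysozyme, had between 4587 and 10932 reads, while CD3E, HBB and TYROBP were at 0 in every library. No endothelial marker reached 10 reads in any library.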
